A study of Sus scrofa with 9 samples.

Results

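The germ of the deciduous molar of the miniature pig was compared between embryonic day 40 (E40), the cap stage, and embryonic day 50 (E50), the early bell stage. The comparison took the rows of the expression table whose symbol did not begin with LOC, MIR, TRNA or tRNA and whose FPKM (fragments per kilobase of transcript, per mapped fragments of the library) was at least 1 in 2 or more of the 6 libraries. There were 10996 such genes among the 14420 rows with such a symbol and the 34580 rows in all, and 3424 named rows were not tested. Each stage had 3 libraries of rRNA-depleted total RNA, made from mandibular Dm3 germs of fetuses taken by caesarean section from pregnant sows. No genotype, strain name, sex or treatment other than stage was given, and all germs, those of the late bell stage at embryonic day 60 (E60) included, were dissected after the sow was anaesthetised with ketamine and xylazine. How many fetuses or sows stood behind a library was not given in the sources used here, so the p-values measure the spread between libraries, which may be technical.

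At the cap stage the dental epithelium folds around a condensed dental papilla, and a signalling centre, the enamel knot, releases SHH, FGF, BMP and WNT ligands. At the early bell stage the epithelium has separated into inner and outer enamel epithelium, stratum intermedium and stellate reticulum, and secondary enamel knots mark the future cusps. Enamel and dentin matrix are secreted later, once ameloblasts and odontoblasts have differentiated. The whole germ also holds blood vessels, blood and follicle mesenchyme, and the oral mucosa and tongue or jaw muscle lie close to it.

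The stages could not be told apart from the kind of library. Whole reads recovered from the FPKM steps came to 938527, 1051466 and 1323530 in the E40 libraries and to 14652172, 16674750 and 14362235 in the E50 libraries. One read on a transcript of 1 kb was thus worth 0.756 to 1.07 FPKM at E40 and 0.0600 to 0.0696 FPKM at E50. Rows with a gene symbol took 50.1% to 57.3% of the reads at E40 and 85.9% to 86.4% at E50. The E60 libraries held both kinds: library 1, with 16124836 reads, was correlated with the E50 libraries at Pearson r of 0.959 to 0.970 over the named genes tested, while libraries 2 and 3, with 1380822 and 1760356 reads, were correlated with the E40 libraries at 0.787 to 0.847. Between E40 and E50 the range was 0.521 to 0.691, and between library 1 and libraries 2 and 3 of E60, all of 1 stage, it was 0.601 to 0.738. These r are descriptions over genes of log2 values from the same libraries. The 5 shallow libraries (E40 and E60 libraries 2 and 3) and the 4 deep ones (E50 and E60 library 1) are called the shallow and the deep library set here.

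Each gene therefore has a stage difference and a library difference, and the second is printed for only part of the genes named below. A gene printed without it is not thereby free of a library difference. The stage difference is E50 minus E40 in log2(FPKM + 0.1), after median-ratio scaling of the 6 libraries, with its standard error from limma. A gene passed when its p, adjusted by Benjamini-Hochberg over all 18802 rows above the filter, was under 0.05 and its difference was at least 1, a 2-fold change. The library difference is that between E60 library 1 and the mean of E60 libraries 2 and 3. It is a difference of library set within 1 stage and has no replicate of the deep kind. A limma fit of all 9 libraries with the library set as a term combined the 2 differences, on the assumption that the set acted alike at every stage. The FPKM printed below are as deposited, and the differences are after scaling.

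Of the 10996 genes, 1789 (16.3%) passed as higher and 2320 (21.1%) as lower at E50. The counts of rises and falls in each gene list below are to be read against these shares. Of the 4109 genes that passed, 4108 had no overlap between the E40 and E50 libraries after scaling. A lack of overlap printed below for a gene that passed is therefore no mark of that gene. The median difference over all genes was 0.05, and without scaling it was 0.83, at which 4429 genes passed as higher and 1621 as lower, so the balance of directions was set by the scaling. Differences are best read relative to that median. Of the genes higher at E50, 1232 were also higher by at least 1 in the deep than in the shallow E60 libraries, 553 differed by less than 1 between them, and 4 were lower by at least 1. Of the genes lower at E50, the corresponding numbers were 1822 in the same direction, 461 within 1, and 37 opposite. Across the 10996 genes the stage difference and the E60 library difference, which share no library, had a Pearson r of 0.868 and a Spearman rho of 0.805. With the library set as a term, 7 genes (0.0637%) passed as higher and 20 (0.182%) as lower, and the median standard error was 0.519 in place of 0.246.

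**Figure D1:**
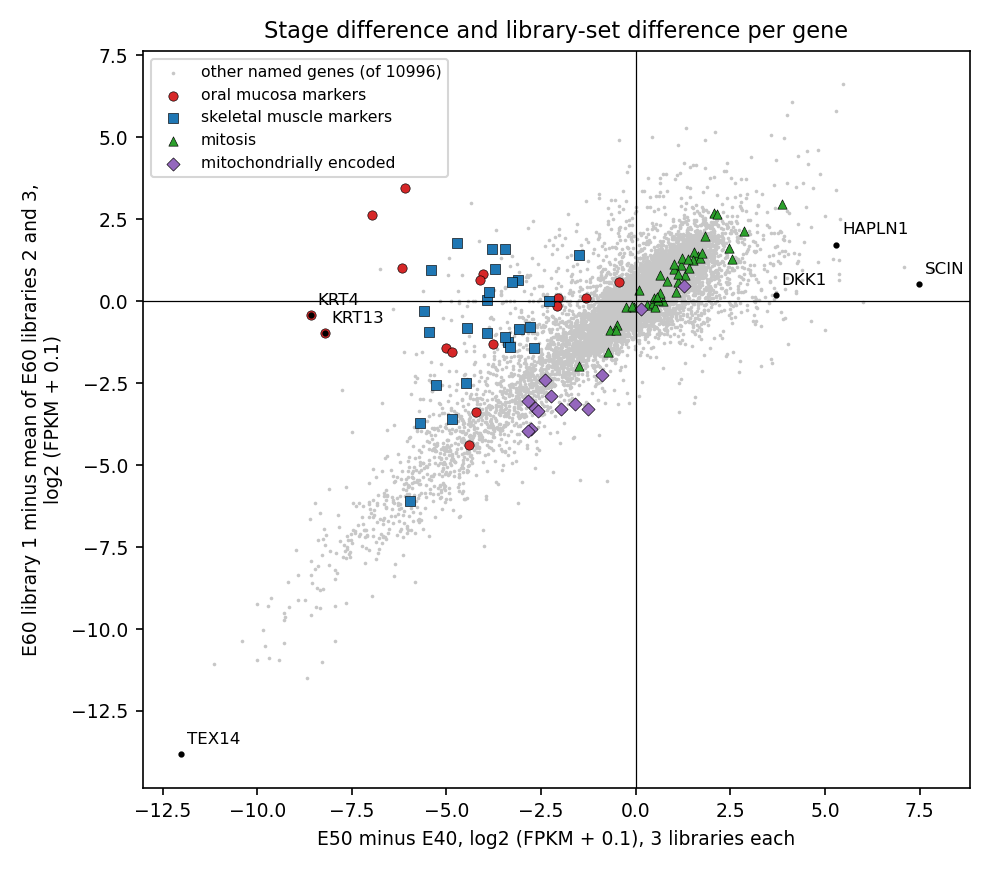
Each point is 1 of the 10996 named genes, with the E50 minus E40 difference on the x axis and the E60 library 1 minus libraries 2 and 3 difference on the y axis, both in log2(FPKM + 0.1). Most genes lie along the diagonal (Pearson r 0.868). The labelled keratins KRT13 and KRT4 lie far to the left, at -0.98 and -0.43 on the y axis. Of the 25 skeletal muscle genes that fell, 12 lie within 1 of 0 on the y axis. Another 9 lie at -1 or below and 4 at 1 or above.

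The list with the lowest median difference marked oral mucosa. Of 26 genes of oral mucosa and keratinising epithelium, 20 were in the table, 16 were tested, 15 fell and none rose, with a median difference of -4.31. Between the E60 libraries the median for these genes was -0.02. Their summed FPKM ran from 2557 to 3487 at E40, from 249 to 278 at E50 and from 136 to 274 at E60. In bulk RNA, fewer cells of a type and less RNA per cell cannot be told apart.

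KRT13, a keratin of the suprabasal layers of non-keratinised oral mucosa, had 1749, 1926 and 2356 FPKM in E40 libraries 1, 2 and 3 and 12.2, 8.96 and 14.1 FPKM at E50. Every E40 library was far above every E50 library, a 295-fold fall (-8.20 ± 0.16, adjusted p = 5.0e-06). At E60 the deep library had 8.43 FPKM and the shallow ones 5.77 and 10.1, so both kinds of library were low. With the library set as a term the difference was -7.24 ± 0.29 (adjusted p = 1.1e-04). KRT4, the type II partner of KRT13, showed the same pattern, with 354, 454 and 526 FPKM at E40, 1.77, 1.09 and 3.34 at E50 and 2.36, 1.25 and 1.72 at E60 (-8.57 ± 0.34, adjusted p = 6.1e-06).

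Genes of the cornified envelope, the crosslinked protein shell of the uppermost keratinocytes, followed. IVL, involucrin, had 23.1, 26.5 and 33.3 FPKM at E40 and 0.106, 0.185 and 0.592 at E50 (-6.96 ± 0.42, adjusted p = 1.6e-05). SPRR1A, a small proline-rich envelope precursor, had 20.9, 29.1 and 56.4 FPKM at E40 and 0.584, 0.513 and 1.11 at E50 (-6.08 ± 0.36). For either gene every E40 library was above every E50 library. CRNN, cornulin of the upper mucosal layers, fell with a difference of -6.17 ± 0.37 and SCEL, sciellin, with -4.35 ± 0.25. A2ML1, a protease inhibitor of stratified epithelia, had 37.6, 41.0 and 52.2 FPKM at E40 and 0.704, 0.634 and 0.951 at E50 (-6.40 ± 0.20).

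Members of the same list separated when the E60 libraries were compared. KRT10, the keratin of keratinising suprabasal cells, had 38.4, 35.9 and 29.2 FPKM at E40 and 2.90, 2.37 and 2.75 at E50 (-4.41 ± 0.24), but 33.6 and 18.5 FPKM in the shallow E60 libraries against 2.502 in the deep one. Its difference with the library set as a term was -0.04 ± 0.73. CNFN, cornifelin, likewise went from -4.22 ± 0.43 to -0.78 ± 1.11, on 6 reads at E40. Of the 15 members that fell, 5 were also lower by at least 1 in the deep E60 library, 7 were within 1 and 3 were higher by at least 1. DSG3, a desmosomal cadherin also present in dental epithelium, did not pass (-0.43 ± 0.15).

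Skeletal muscle genes fell as a group as well. Of 36 genes on the list, 30 were in the table, 26 were tested, 25 fell and none rose, with a median of -3.83 against -0.80 between the E60 libraries. Summed FPKM was 449.7 to 654 at E40 and 46.3 to 58.4 at E50. CKM, NEB, PAX7 and TNNT3 were listed at 0 in all 9 libraries. So were rows of ribosomal protein genes such as RPL7, so these zeros do not show that the genes were silent.

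Among contractile genes, MYLPF, the regulatory light chain of fast fibres, had 100.3, 95.3 and 104 FPKM at E40 and 11.7, 11.7 and 11.7 at E50, a 14.6-fold fall (-3.87 ± 0.14, adjusted p = 6.1e-06). At E60 it had 7.44, 2.20 and 3.45 FPKM in libraries 1, 2 and 3, and the difference with the library set as a term was -4.18 ± 0.28 (adjusted p = 0.0014). TNNC2, the calcium sensor of fast troponin, had 70.7, 98.6 and 143 FPKM at E40 and 6.93, 6.46 and 10.1 at E50 (-4.47 ± 0.22). In neither gene did the stages overlap. A myosin heavy chain row named MYHC fell from 71.3, 76.6 and 102 to 3.58, 3.02 and 3.41 FPKM (-5.36 ± 0.14), and its reads can be shared with other heavy chain genes. TNNI1, troponin I of slow fibres, and MYL3, a slow light chain, fell with a difference of -5.45 ± 0.25 and -4.71 ± 0.32, and both also passed with the library set as a term, a call that held in 2 of 8 fits that left out single libraries. ACTA1, skeletal actin, fell less (-3.38 ± 0.16).

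The regulators of myogenesis MYF5 and MYOG also fell. MYF5, which specifies myoblasts, fell on 5 reads at E40 (-3.45 ± 0.63). MYOG, which drives myoblast differentiation, had 17.4, 15.5 and 24.6 FPKM at E40 and 0.909, 0.710 and 1.55 at E50 (-4.84 ± 0.30), but 6.43 and 5.05 FPKM in the shallow E60 libraries against 0.918 in the deep one. CHRNG, the fetal subunit of the muscle acetylcholine receptor, was split in the same way, with 6.50 and 9.83 FPKM in the shallow and 0.119 FPKM in the deep E60 libraries, and its difference changed from -5.95 ± 0.43 to 0.22 ± 0.75 with the set term. Of the 25 muscle genes that fell, 9 were also lower by at least 1 in the deep E60 library, 12 were within 1 and 4 were higher by at least 1.

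**Figure D2:**
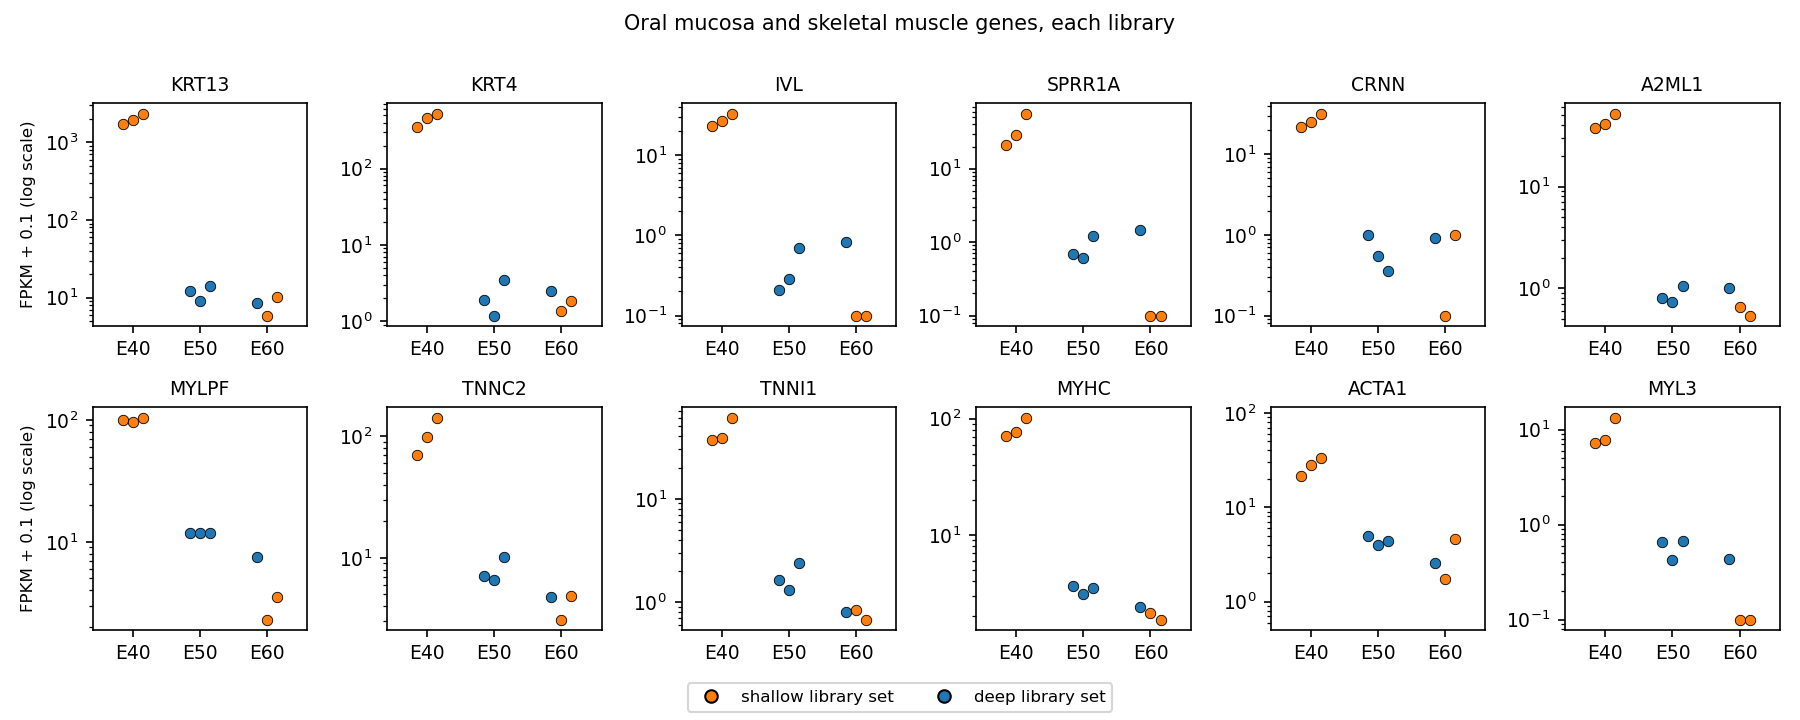
FPKM + 0.1 on a log scale in each of the 9 libraries for oral mucosa genes (upper row) and muscle genes (lower row), with the shallow library set in orange and the deep set in blue. KRT13, KRT4, IVL and MYLPF were high only in the 3 E40 libraries. KRT10 and CHRNG, which are not drawn here, were also high in the 2 shallow E60 libraries.

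Genes of the dental epithelium itself moved less. Of 41 genes, 32 were in the table and 29 were tested, of which 4 rose and 13 fell. Their median was -0.57, which turned to 0.22 without scaling, and their summed FPKM was 4481 to 6463 at E40 and 3199 to 4348 at E50. Several members are shared with oral mucosa, whose summed FPKM fell beside them, and its part in these values was not tested.

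KRT15 and SOX2 had the largest falls of the list. KRT15, a keratin of basal progenitor cells, had 552, 611 and 750.3 FPKM at E40 and 85.4, 64.7 and 91.2 at E50, a 13.7-fold fall (-3.78 ± 0.14, adjusted p = 6.1e-06), and 27.5, 8.76 and 37.6 FPKM at E60. SOX2, a transcription factor of the dental lamina and of oral epithelium, had 13.3, 12.9 and 19.7 FPKM at E40 and 2.70, 1.997 and 1.81 at E50 (-3.52 ± 0.23, adjusted p = 2.0e-05). All E40 values exceeded all E50 values in both genes, and almost every gene that passed lacked overlap after scaling. KRT5 and KRT14, the keratin pair of basal epithelium, fell with a difference of -1.32 ± 0.16 and -1.58 ± 0.17, and SFN, the 14-3-3 protein stratifin of stratified epithelia, with -1.44 ± 0.14. Their differences between the E60 libraries were -0.60, -0.86 and -0.63.

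The genes of the list that rose encode cell adhesion proteins, and other genes of adhesion fell. EPCAM, an epithelial adhesion molecule, had 10.9, 19.4 and 22.5 FPKM at E40 and 51.6, 60.7 and 67.3 at E50 (1.03 ± 0.21). CLDN1, a tight junction claudin, and DSG2, a desmosomal cadherin, rose by 1.15 ± 0.12 and 1.41 ± 0.15. All 4 that rose, with PERP, a desmosome-associated protein, were also higher by at least 1 in the deep E60 library. PKP1, a desmosomal plakophilin, and CLDN4, another claudin, fell with a difference of -1.08 ± 0.15 and -1.01 ± 0.27. CLDN17, a claudin outside the list, was among the 7 genes that passed as higher with the set term and had no read at E40 and 7.41, 8.24 and 9.57 FPKM at E50, at least 1.48-fold higher against a floor of 3 reads per library. Its call with the set term held in 2 of 8 fits that left out single libraries.

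Enamel matrix genes were low at both stages. AMEL, amelogenin, the main enamel matrix protein, had 9.58, 14.7 and 6.79 FPKM at E40 and 5.52, 4.93 and 3.84 at E50, a fall of 3.54-fold (-1.83 ± 0.36, adjusted p = 0.0041), against 6991, 990.0 and 2686 FPKM in the E60 libraries. AMBN, ameloblastin, had 5.58, 6.48 and 2.77 FPKM at E40 and 4.61, 4.02 and 2.95 at E50, overlapping ranges that did not pass (-1.06 ± 0.44, adjusted p = 0.075), though they did in limma-voom, with array weights and without E40 library 3. ENAM, enamelin, had 1.09, 1.22 and 1.55 FPKM at E40, on 17 reads in all, and 0.209, 0.107 and 0.0534 at E50 (-3.23 ± 0.50), and 890.5, 212 and 327 FPKM at E60. In all 3 enamel genes every E60 library, deep or shallow, was far above every E40 and E50 library. FAM20A, a partner of the kinase that phosphorylates enamel proteins, had 10.04, 14.3 and 12.3 FPKM at E40 and 5.19, 4.37 and 4.77 at E50 (-2.11 ± 0.19) and was 15.0, 9.10 and 11.8 FPKM at E60.

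Of the 10 enamel genes tested, of 16 on the list, 4 fell and 2 rose. SLC4A4, a bicarbonate transporter, rose (1.41 ± 0.26) and was also higher in the deep E60 library (1.53). AMTN, amelotin of the maturation stage, rose from 0, 0 and 3.27 FPKM, 3 reads in all, to 10.5, 11.6 and 15.6 FPKM. The median of the list was -0.74, and 0.03 without scaling. Among 11 dentin and bone matrix genes tested, 2 rose and 2 fell (18.2% each, against 16.3% and 21.1% of all genes). DSPP, the precursor of the main non-collagenous dentin proteins, had 2.62, 1.41 and 0 FPKM at E40 and 1.31, 1.42 and 0.857 at E50 and did not pass (0.09 ± 1.30), whereas it had 393, 174 and 194 FPKM at E60.

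A phosphate transporter and a calcium-binding protein fell. SLC20A2, a sodium-dependent phosphate transporter, had 128, 139 and 114 FPKM at E40, 22.4, 20.3 and 22.4 at E50 and 57.3, 24.6 and 44.9 at E60 (-3.33 ± 0.18, adjusted p = 1.0e-05; -3.002 ± 0.32 with the set term, adjusted p = 0.011). CALB1, a calcium-buffering protein known from ameloblasts, had 39.2, 28.4 and 29.5 FPKM at E40 and 0.157, 0.0689 and 0.1601 at E50 (-7.76 ± 0.33). In the shallow E60 libraries CALB1 had 17.5 and 13.7 FPKM and in the deep one 5.06, and the difference with the set term was -4.97 ± 0.68 (adjusted p = 0.042), which passed in 2 of 8 fits that left out single libraries. These genes were named because they were among the 27 that passed with the library set as a term.

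**Figure D3:**
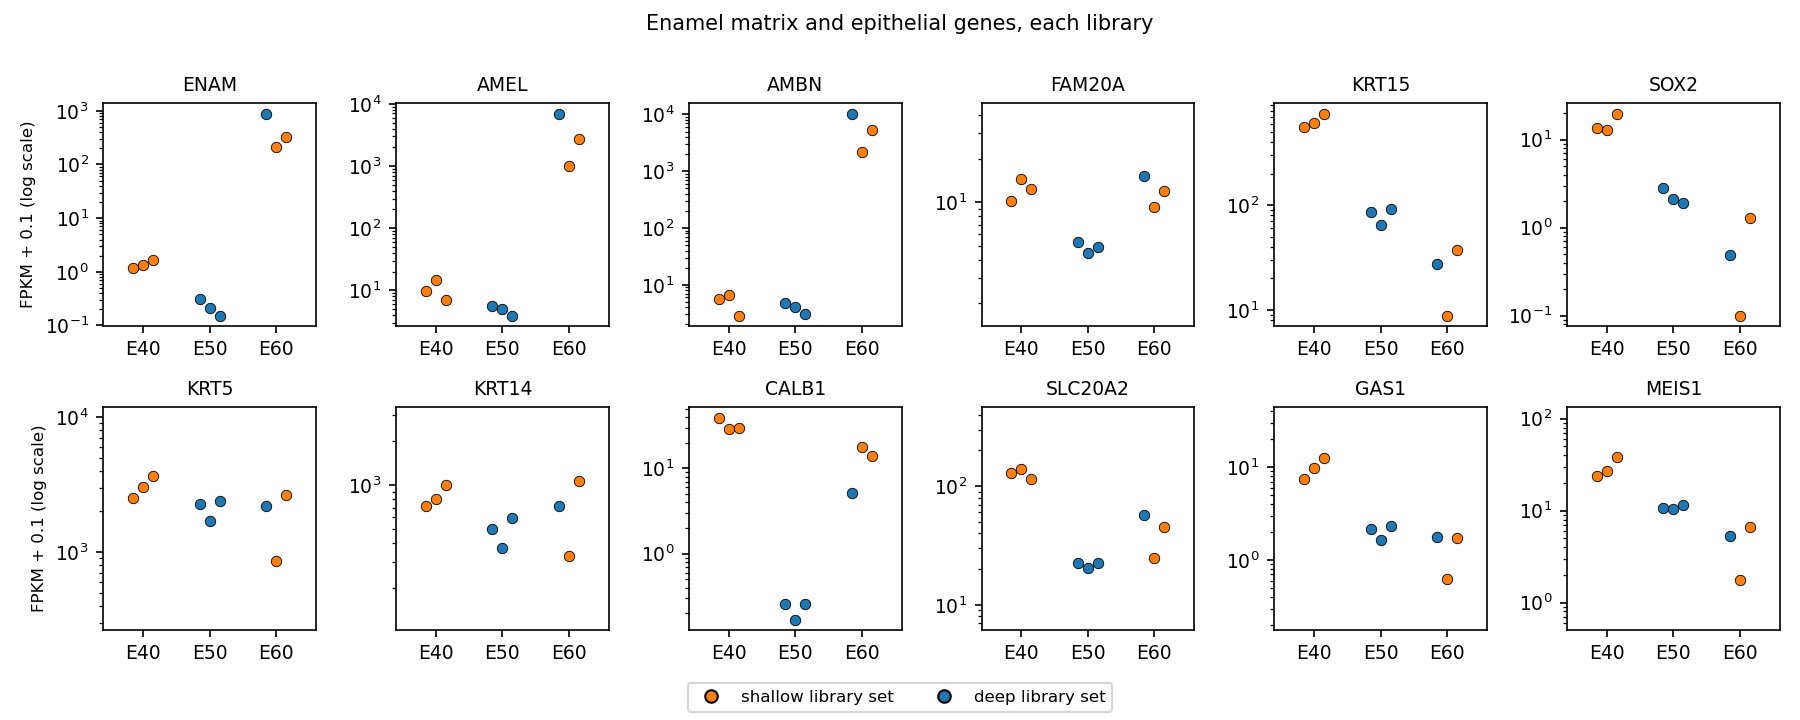
FPKM + 0.1 on a log scale in each of the 9 libraries for enamel matrix genes and genes of epithelium and mesenchyme that were lower at E50, with the shallow set in orange and the deep set in blue. AMEL, AMBN and ENAM were low at E40 and E50 and high in all 3 E60 libraries, and KRT15 and SOX2 fell from E40 to E50 and were lower still at E60.

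WNT pathway genes moved in both directions, at shares close to those of all genes. Of 60 WNT pathway genes, 49 were in the table and 45 were tested, of which 10 rose and 9 fell (22.2% and 20%, against 16.3% and 21.1% of all genes), with a median of 0.35. DKK1, a secreted inhibitor that binds the LRP co-receptors of WNT, had 5.32, 10.7 and 14.1 FPKM at E40, on 28 reads, and 188, 215 and 227 at E50, a 12.9-fold rise (3.69 ± 0.26, adjusted p = 2.8e-05). At E60 it had 166, 51.5 and 85.8 FPKM in libraries 1, 2 and 3. The E60 libraries differed by 0.18 after scaling, and the stage difference with the set term was 3.49 ± 0.45 (adjusted p = 0.032). DKK1 was the only member of the list that passed in that fit.

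The secreted WNT modulators FRZB, RSPO4 and DKK2 rose with differences of less than 1 between the E60 libraries, and 2 others fell. FRZB, a secreted decoy receptor of WNT ligands, had 4.60, 4.93 and 5.55 FPKM at E40 and 41.1, 47.3 and 53.1 at E50 (2.42 ± 0.16). RSPO4, an R-spondin that enhances WNT signalling, had 9.14, 10.9 and 9.72 FPKM at E40 and 75.7, 66.3 and 81.9 at E50 (2.11 ± 0.16). DKK2, a relative of DKK1, had 1.98, 2.65 and 3.86 FPKM at E40 and 17.6, 19.3 and 19.4 at E50 (1.96 ± 0.21). In each of the 3 genes all E50 values exceeded all E40 values, and the E60 libraries differed by 0.96, 0.27 and 0.46. With the set term their differences were 1.43 ± 0.31, 1.82 ± 0.35 and 1.48 ± 0.37, none past the limits. The ligand WNT11 rose (2.06 ± 0.39) on 6 reads at E40.

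The receptors FZD3 and LGR4 and the co-receptor LRP6 rose too (1.23 ± 0.19, 1.38 ± 0.24 and 1.15 ± 0.20), and these were all higher by at least 1 in the deep E60 library. Among those that fell, 7 of 9 were also lower by at least 1 in the deep E60 library. WNT2B fell from 8.87, 7.28 and 6.63 to 0.752, 0.674 and 0.689 FPKM (-3.98 ± 0.31) and the E60 libraries differed by -3.94. APC, a scaffold of the complex that degrades beta-catenin, fell with a difference of -1.65 ± 0.23 with -1.52 between the E60 libraries. LGR5, an R-spondin receptor of epithelial stem cells, fell with a difference of -2.02 ± 0.44 with 0.05 between the E60 libraries. SFRP2 and SFRP5, secreted WNT inhibitors, fell with a difference of -1.11 ± 0.29 and -1.01 ± 0.35 with 0.29 and -2.495 between the E60 libraries.

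In the hedgehog pathway the targets PTCH1 and HHIP rose. PTCH1, the receptor of SHH and a transcriptional target of the pathway, had 10.9, 14.8 and 18.8 FPKM at E40 and 65.0, 64.1 and 57.5 at E50 (1.31 ± 0.15, adjusted p = 2.7e-04). HHIP, a decoy that binds the ligand, had 2.58, 1.53 and 2.44 FPKM at E40 and 9.60, 10.7 and 9.70 at E50 (1.41 ± 0.28). The ligand SHH had 54.6, 43.2 and 73.1 FPKM at E40 and 168, 141 and 180.0 at E50, with no overlap, and its difference of 0.75 ± 0.17 (adjusted p = 0.0081) was under the limit of 1. At E60 SHH had 171, 109.6 and 219.8 FPKM. GLI1, another target, did not pass (0.37 ± 0.15).

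The co-receptor GAS1 fell from 7.29, 9.58 and 12.5 to 2.06, 1.53 and 2.25 FPKM (-3.02 ± 0.23, adjusted p = 4.1e-05), with -0.26 between the E60 libraries. BOC, another co-receptor, and HHAT, the enzyme that attaches palmitate to the ligand, fell with a difference of -1.43 ± 0.27 and -1.47 ± 0.16. Thus 2 of the 13 hedgehog genes tested rose and 3 fell, and none passed with the set term. These shares, 15.4% and 23.1%, were close to the 16.3% and 21.1% of all genes.

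Among genes of BMP, activin and TGF-beta signalling, 11 of 39 tested rose and 4 fell. BAMBI, a pseudoreceptor that blocks signalling, had 16.6, 14.8 and 21.5 FPKM at E40, 83.7, 74.4 and 93.2 at E50 and 302, 110.1 and 259 at E60 (1.47 ± 0.15, adjusted p = 1.4e-04), and the E60 libraries differed by -0.30. ID1, a target of BMP signalling, rose by 1.14 ± 0.27, and the BMP antagonist GREM1 by 1.43 ± 0.32. The receptor TGFBR1 rose from 3.09, 6.98 and 8.25 to 52.6, 69.7 and 60.3 FPKM (2.62 ± 0.30), and its difference between the E60 libraries was 2.17. SMAD4, the shared mediator of the pathway, rose by 1.51 ± 0.16 with 1.51 between the E60 libraries.

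The ligands TGFB3 and INHBA fell. TGFB3 had 33.9, 27.2 and 27.1 FPKM at E40 and 9.52, 8.01 and 8.67 at E50 (-2.52 ± 0.21), and INHBA, a subunit of activin A that dental mesenchyme expresses, had 30.4, 27.1 and 30.3 and 17.1, 15.5 and 15.6 FPKM (-1.65 ± 0.16). The LTBP3 and LTBP4 genes, whose products hold latent TGF-beta in the matrix, fell with a difference of -1.20 ± 0.21 and -1.97 ± 0.27. All 4 of these were lower by at least 1 in the deep E60 library.

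Of 19 FGF genes tested, 2 rose and 4 fell (10.5% and 21.1%), the latter at the share of all genes. FGF10, a mesenchymal ligand that maintains dental epithelium, had 41.7, 38.7 and 30.05 FPKM at E40 and 13.4, 16.8 and 16.2 at E50 (-2.03 ± 0.25), with -2.11 between the E60 libraries and 0.07 ± 0.48 with the set term. FGF2 and KLB, a co-receptor of endocrine FGFs, fell with a difference of -3.82 ± 0.25 and -6.94 ± 0.42, and the E60 libraries differed by -3.79 and -6.59. ETV1, a transcription factor induced by FGF, rose from 8.22, 10.1 and 13.1 to 47.7, 60.8 and 60.0 FPKM (1.64 ± 0.16, with 0.99 between the E60 libraries). Of 21 Notch genes, HEY1, a target gene, rose (1.30 ± 0.21) and the receptor NOTCH4 fell (-3.11 ± 0.36). NOTCH4 was also lower by at least 1 in the deep E60 library, and HEY1 differed by less than 1.

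Of 14 tested signalling genes of the enamel knot and dental epithelium, none rose past both limits and EDARADD, the adaptor of the ectodysplasin receptor, fell (-1.31 ± 0.27). FGF9, LEF1 and WNT4 had an adjusted p under the limit, as SHH did, with differences short of 1 (0.82 ± 0.29, -0.64 ± 0.14 and -0.81 ± 0.17). FGF4, a ligand of the enamel knots, had 0, 1.53 and 2.43 FPKM at E40, 3 reads in all, and 3.07, 2.89 and 2.80 at E50, and no fold is given for so few reads.

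**Figure D4:**
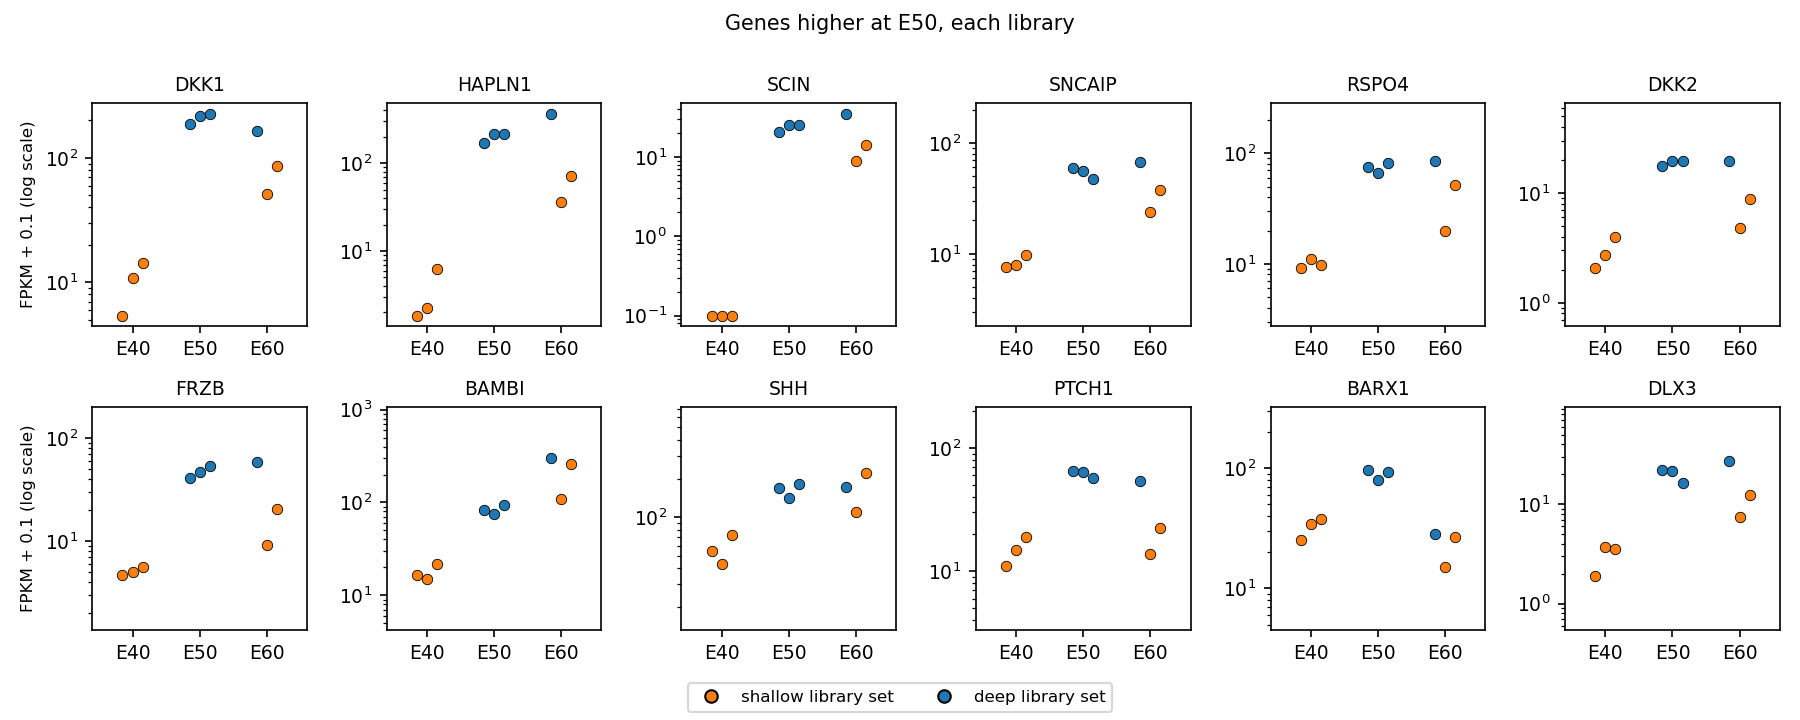
FPKM + 0.1 on a log scale in each of the 9 libraries for genes with higher values at E50, with the shallow set in orange and the deep set in blue. DKK1, HAPLN1, SCIN, SNCAIP, RSPO4 and BAMBI were low in the 3 E40 libraries and higher in all E50 and E60 libraries, deep or shallow, whereas BARX1 was highest at E50.

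Of 33 transcription factors of the jaw and its mesenchyme in the table, 26 passed the filter. DLX5, MEOX2 and SNAI2 were listed at 0 in all 9 libraries, ALX1 and HAND1 in the 3 E40 libraries, and FOXC1 and FOXC2 also stayed under the filter. The ribosomal protein rows RPL7 and RPL10 were at 0 in all 9 libraries too. A row at 0 throughout thus does not show that the gene was silent. None of the 32 HOX genes in the table passed the filter, with summed values of 3.46 to 4.29 FPKM at E40 and 1.75 to 3.43 at E50. The first branchial arch, from which the jaws form, is known to lack HOX expression. LHX8, of oral and dental mesenchyme, had 66.1, 84.7 and 94.6 FPKM at E40 and 206, 219 and 238 at E50 (0.66 ± 0.12). BARX1, a homeobox gene of molar mesenchyme, had 25.2, 34.5 and 37.5 and 96.7, 80.0 and 92.5 FPKM (0.69 ± 0.13, adjusted p = 0.0027), with no overlap and a difference under the limit of 1.

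Of 26 such factors tested, 4 rose and 6 fell (15.4% and 23.1%, against 16.3% and 21.1% of all genes). Their median was -0.34, which was 0.45 without scaling. DLX3 and DLX4, a linked pair of distal-less homeobox genes, rose by 2.001 ± 0.27 and 2.13 ± 0.37. DLX3, which is mutated in a syndrome of hair, teeth and bone, had 1.78, 3.58 and 3.47 FPKM at E40, on 24 reads, and 22.2, 21.4 and 16.4 at E50. TWIST2, a factor of craniofacial mesenchyme, rose by 1.79 ± 0.62. These 3 genes differed by less than 1 between the E60 libraries.

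MEIS1, a homeobox cofactor, had 23.8, 27.1 and 37.8 FPKM at E40 and 10.7, 10.21 and 11.5 at E50 (-2.20 ± 0.14) and differed by -0.46 between the E60 libraries. TWIST1, of cranial mesenchyme, fell with a difference of -1.26 ± 0.17. RUNX2, the master regulator of osteoblasts that dental mesenchyme also expresses, fell from 38.0, 31.9 and 27.9 to 5.06, 5.29 and 5.67 FPKM (-3.36 ± 0.24), but the shallow E60 libraries had 20.3 and 11.7 FPKM and the deep one 3.55. DLX1 and TFAP2A fell with a difference of -2.90 ± 0.28 and -3.03 ± 0.28, with -3.67 and -2.33 between the E60 libraries.

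Extracellular matrix genes moved in both directions. HAPLN1, a link protein that binds hyaluronan to proteoglycans, had 1.74, 2.14 and 6.19 FPKM at E40, on 59 reads, and 169, 217 and 216 at E50, a 39.3-fold rise (5.30 ± 0.37, adjusted p = 2.5e-05). The E60 libraries had 369, 35.7 and 71.7 FPKM, and the difference with the set term was 3.55 ± 0.62 (adjusted p = 0.1). LUM, lumican, and DCN, decorin, small leucine-rich proteoglycans that bind collagen, rose by 3.14 ± 0.19 and 2.146 ± 0.15, and VCAN, versican, a large proteoglycan of loose mesenchyme, by 1.82 ± 0.15. LUM had 17.6, 24.5 and 24.5 FPKM at E40 and 268, 397 and 359.6 at E50. The E60 libraries differed by 1.503, 1.22 and 0.96 in LUM, DCN and VCAN.

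Of the 25 proteoglycan and hyaluronan genes tested these 4 rose and 6 fell (16% and 24%), close to the 16.3% and 21.1% of all genes. ASPN, asporin, a leucine-rich proteoglycan of the periodontal ligament, fell from 59.9, 50.4 and 51.4 to 10.9, 16.4 and 17.7 FPKM (-2.65 ± 0.25) with -1.14 between the E60 libraries. CHAD and HAS1 fell with a difference of -6.01 ± 0.32 and -5.32 ± 0.42, and the E60 libraries differed by -5.19 and -5.63. CHAD encodes chondroadherin and HAS1 a hyaluronan synthase.

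Among 31 fibrillar collagen and collagen processing genes, 5 rose and 2 fell (16.1% and 6.45%, against 16.3% and 21.1% of all genes). COL3A1, type III collagen of loose mesenchyme, had 315, 374 and 475 FPKM at E40 and 2103, 1878 and 1703 at E50 (1.51 ± 0.13, adjusted p = 7.6e-05), with 0.61 between the E60 libraries. COL1A2, a chain of type I collagen, rose by 1.48 ± 0.16 with 1.34. LOXL4, a collagen crosslinking enzyme, fell with a difference of -2.56 ± 0.30 with -0.70. The median of the list was -0.03.

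Basement membrane genes had 6 rises and no fall among 25 tested, at a list median of 0.05. FREM1, a protein of the epithelial basement membrane, rose from 13.3, 18.1 and 20.9 to 81.2, 97.6 and 86.4 FPKM (1.57 ± 0.15), and LAMA4 and LAMC3, laminin chains, by 1.20 ± 0.15 and 1.95 ± 0.37. COL15A1 and COL4A4, basement membrane collagens, rose by 2.02 ± 0.45 and 2.47 ± 0.54. Of the 6 that rose, 2 were also higher by at least 1 in the deep E60 library and 4 were within 1. Among 21 integrins, 7 rose and 3 fell. ITGA4, a receptor for fibronectin and VCAM1, had 4.29, 5.29 and 5.07 FPKM at E40 and 44.2, 61.0 and 53.7 at E50 (2.62 ± 0.19, adjusted p = 3.0e-05), with 1.29 between the E60 libraries. ITGB7 and ITGAE, integrin chains of leukocytes, fell with a difference of -4.55 ± 0.35 and -4.53 ± 0.39, with -3.67 and -3.72.

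FBN2, fibrillin 2 of fetal microfibrils, was 1 of 2 matricellular and elastic fibre genes that rose among 35 tested, from 17.4, 21.8 and 27.2 to 161, 184 and 140.1 FPKM (2.09 ± 0.16, adjusted p = 3.4e-05), while 6 fell. Among 32 matrix proteases and their inhibitors, 4 rose and 11 fell. ADAMTS19, a secreted metalloprotease, had 70.0, 67.3 and 54.4 FPKM at E40 and 19.6, 22.5 and 23.6 at E50 (-2.32 ± 0.22), with -1.44 between the E60 libraries. Of the 11 that fell, 8 were also lower by at least 1 in the deep E60 library. GJA1, connexin 43 of gap junctions, was the most abundant of 5 genes that rose among 22 cadherins and junction genes, with 283, 344 and 424 FPKM at E40 and 1725, 2020 and 2007 at E50 (1.68 ± 0.13), and 2 fell. In axon guidance 7 of 56 rose and 4 fell, and EPHA3, an ephrin receptor, rose from 8.26, 10.4 and 16.5 to 107, 130.3 and 123 FPKM (2.62 ± 0.19).

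Mitotic genes were the list with the most rises. Of 41 tested, 21 rose and KIF23, a kinesin of the midbody, fell (-1.49 ± 0.22), at a median of 1.02 and of 0.79 between the E60 libraries. KIF11, the kinesin that separates spindle poles, had 0.891, 1.39 and 1.89 FPKM at E40, on 23 reads, and 28.3, 42.3 and 36.9 at E50 (3.87 ± 0.26, adjusted p = 2.3e-05). In the shallow E60 libraries KIF11 had 1.06 and 1.90 FPKM and in the deep one 25.5. CDK1, the kinase that starts mitosis, and MKI67, the Ki-67 antigen of cycling cells, rose by 2.07 ± 0.19 and 1.52 ± 0.29, with 2.70 and 1.25 between the E60 libraries. Of the 21, 16 were also higher by at least 1 in the deep E60 library, none was lower by at least 1, and none passed with the set term.

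Replication genes did not move one way. Of 35 tested, 6 rose and 4 fell (17.1% and 11.4%, against 16.3% and 21.1% of all genes). PCNA, the clamp of the DNA polymerases, rose by 2.53 ± 0.19 and CDT1, which licenses origins, fell with a difference of -1.54 ± 0.18. All 10 of these differed by at least 1 in the same direction between the E60 libraries.

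Genes of the endoplasmic reticulum and secretory pathway had 16 rises and no fall among 50 tested, at a median of 0.62, which was also the median between the E60 libraries. TMED10, a cargo receptor, and STT3B, a catalytic subunit of oligosaccharyltransferase, rose by 1.77 ± 0.17 and 1.73 ± 0.17, with 1.67 and 1.54 between the E60 libraries. KDELR1, the receptor that returns proteins to the endoplasmic reticulum, rose by 1.60 ± 0.21 with 0.67. XBP1, the transcription factor of the secretory programme, rose from 15.9, 24.9 and 32.0 to 103, 133 and 129 FPKM (1.58 ± 0.20), with 1.57 between the E60 libraries and -0.01 ± 0.36 with the set term.

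Of 13 listed genes of mitochondrial DNA that were tested, 9 fell and COX1 rose (1.28 ± 0.21). Their summed FPKM, as deposited, was 6390 to 7833 at E40 and 7023 to 9466 at E50. The calls were made after division by scaling factors of 0.665 to 0.896 at E40 and 1.27 to 1.35 at E50. The sums and the calls are therefore on different scales. The mitochondrial row 16S, outside this list, rose (4.04 ± 0.14). ND5, a subunit of complex I, fell from 642, 573 and 460.3 to 175, 178 and 77.9 FPKM (-2.83 ± 0.38). The median of the list was -2.23, against -3.13 between the E60 libraries. All 9 that fell were also lower by at least 1 in the deep E60 library. Nuclear genes of oxidative phosphorylation had 15 rises and 4 falls among 55, and cytosolic ribosomal protein genes 15 rises and 4 falls among 61. RPL39 rose by 2.43 ± 0.20 and RPL14 fell with a difference of -1.74 ± 0.19, with 2.25 and -2.59 between the E60 libraries. Many such genes have processed pseudogenes, so their values are uncertain where reads were split between copies.

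Other functions had genes moving in both directions, beside 16.3% higher and 21.1% lower among all genes. Mitochondrial ribosomal proteins had 5 rises and 3 falls among 57 (8.77% and 5.26%), and splicing factors 5 and 2 among 44 (11.4% and 4.55%). Chromatin regulators had 5 and 4 among 59 (8.47% and 6.78%), and proteasome subunits 6 and 2 among 23 (26.1% and 8.70%). Cholesterol synthesis had 6 and 2 among 20 (30% and 10%), and ciliary genes 9 and 4 among 43 (20.9% and 9.30%). Glycolysis had 3 and 4 among 25 (12% and 16%). Ion channels had 10 and 13 among 37 (27.0% and 35.1%), and immediate early and heat shock genes 5 and 2 among 24 (20.8% and 8.33%). Replication-independent histones had 1 and 1 among 5. SLC2A1, the glucose transporter GLUT1 that is counted with glycolysis, fell from 91.2, 94.5 and 95.4 to 60.3, 59.8 and 57.3 FPKM (-1.45 ± 0.13, adjusted p = 9.2e-05), with -0.43 between the E60 libraries. EGLN3, an oxygen-sensing prolyl hydroxylase outside the lists, fell with a difference of -1.97 ± 0.19 and passed with the set term (-2.46 ± 0.36).

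Markers of other cells the germ can hold gave mixed counts, beside 16.3% higher and 21.1% lower among all genes. Erythroid genes had 1 rise and 5 falls among 10 tested. Their summed FPKM, as deposited and before scaling, was 252 to 433 at E40 and 806 to 1096 at E50. Endothelial genes had 2 rises and 3 falls among 20, pericyte and smooth muscle genes 3 and 6 among 15, immune genes 1 and 4 among 15, and neuronal and glial genes 1 and 4 among 11. RGS5, a pericyte gene, rose by 2.45 ± 0.30 and MCAM, shared by pericytes and endothelium, fell with a difference of -3.65 ± 0.23, with 2.42 and -3.84 between the E60 libraries. Bone and cartilage genes were few: osteoblast markers had 2 and 2 among 8, osteoclast markers 2 and 0 among 7, and cartilage markers 2 and 2 among 12. CTSK, the collagen-degrading protease of osteoclasts, had 6.52, 10.18 and 7.32 FPKM at E40 and 44.6, 50.4 and 53.8 at E50 (1.85 ± 0.21), and ACP5, the osteoclast phosphatase, was listed at 0 in all E40 libraries. COL10A1, of hypertrophic cartilage, fell from 21.6, 16.1 and 15.6 to 0.128, 0.0564 and 0.0655 FPKM (-7.16 ± 0.36), and the shallow E60 libraries had 10.6 and 8.02 FPKM against 0 in the deep one.

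**Figure D5:**
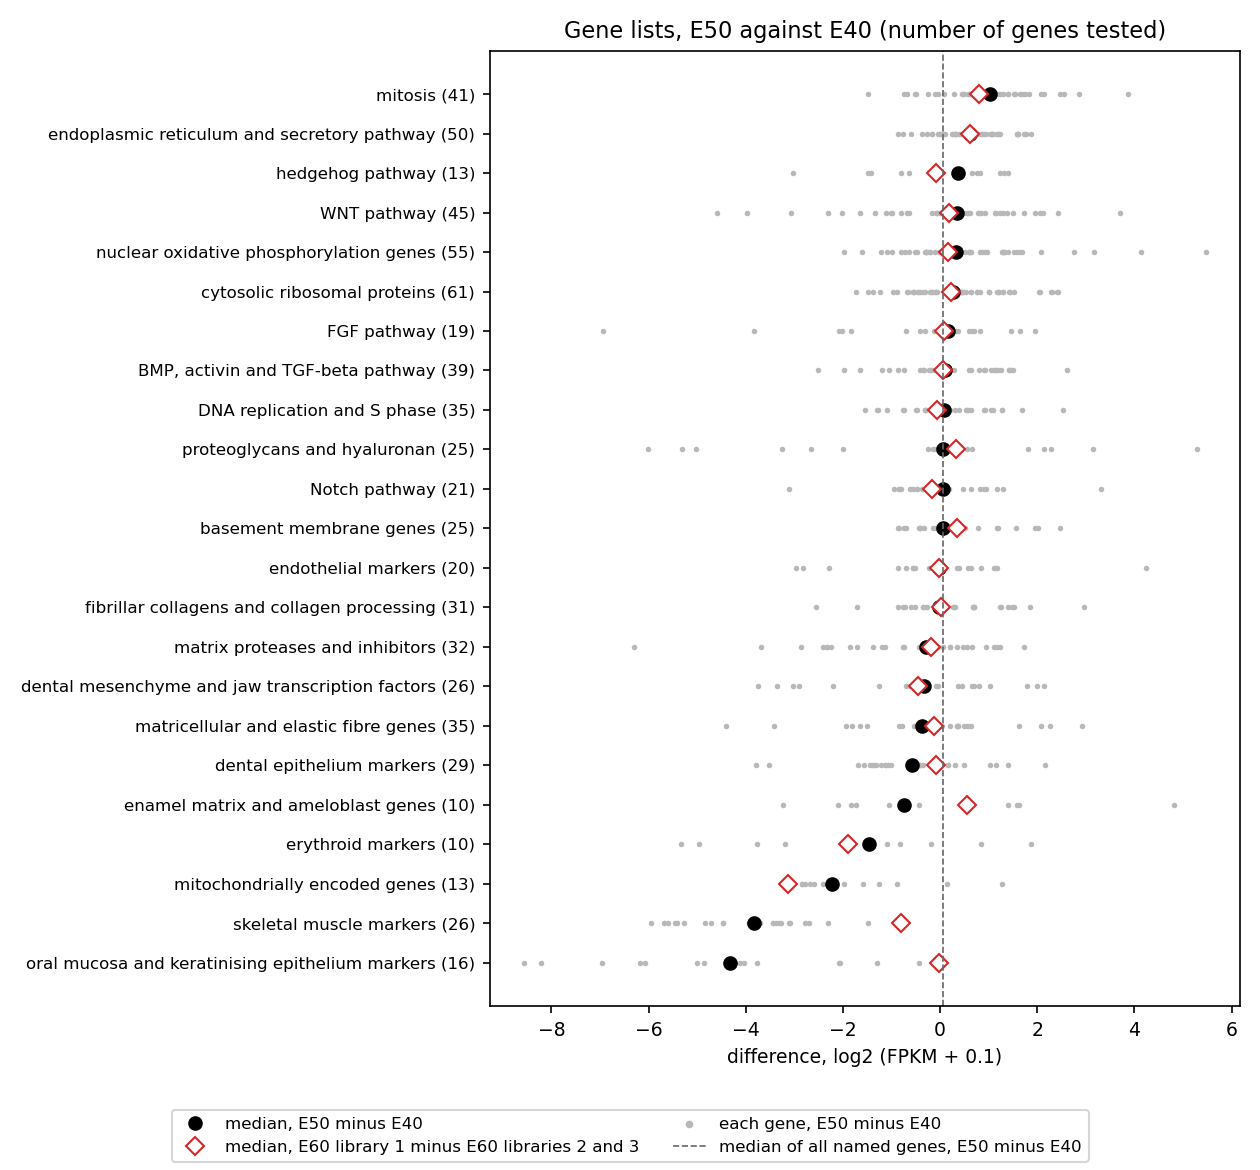
Grey points are the E50 minus E40 differences of single genes in log2(FPKM + 0.1), black circles the median of each list, red diamonds the median difference between E60 library 1 and libraries 2 and 3, and the dashed line the median of all genes (0.05). Oral mucosa and skeletal muscle are the lists whose black circle lies far from both 0 and the red diamond.

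The 12 largest rises among genes with a mean of at least 10 scaled FPKM in the higher stage included structural and adaptor proteins. SCIN, scinderin, which severs actin filaments, had no read in the 3 E40 libraries and 20.2, 25.2 and 25.0 FPKM at E50, at least 13.9-fold higher against a floor of 3 reads per library. At E60 SCIN had 35.2, 8.74 and 14.1 FPKM, and its difference with the set term was 6.77 ± 0.47 (adjusted p = 0.0015). PID1, an adaptor that interacts with an LRP receptor, also had no read at E40, but 1 read was worth so much on its implied length of 155 bases that the floor lies above its E50 level and no fold is given. VWDE, of von Willebrand factor domains, had 1.03, 0.917 and 2.48 FPKM at E40 and 34.1, 45.9 and 39.1 at E50 (4.02 ± 0.32). Its difference between the E60 libraries was 1.44.

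The others of the 12, besides HAPLN1, were AQP4, ATP5J2, CRIPT, HIG2, SGK3, SLC30A6, the ribosomal row RN5-8S and the mitochondrial row 16S. RN5-8S took 5.35%, 0.625% and 0.00338% of the reads of E50 libraries 1, 2 and 3, a spread of 1 rRNA species within 1 stage, and its standard error was correspondingly wide (7.83 ± 2.40). SNCAIP, synphilin-1, which binds alpha-synuclein, had 7.43, 7.84 and 9.58 FPKM at E40, 58.7, 55.7 and 47.6 at E50 and 67.7, 23.9 and 37.8 at E60 (1.91 ± 0.15). It was among the 7 that passed as higher with the set term, with CLDN17, DKK1, NGR, PID1, SCIN and ABI3. ABI3 fell in the 6 libraries (-1.47 ± 0.27) and rose with the term (3.99 ± 0.48), on E60 values of 2.62, 51.4 and 60.0 FPKM.

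The 12 largest falls were TEX14, CCDC152, SLC24A5, SYCP3, PP2D1, CNTD1, PMCH, IFN-DELTA-1, SERINC4, PRL, SIRT4 and GNAT2. TEX14, a protein of germ cell bridges, had 11835, 11155 and 8420 FPKM at E40, 27.2, 1.23 and 2.001 at E50, 18386 and 8209 in the shallow E60 libraries and 1.72 in the deep one. PRL, the pituitary hormone prolactin, had 242, 205 and 185 FPKM at E40, 0.585, 0.129 and 0.373 at E50, 75.3 and 32.9 in the shallow and 0.0665 in the deep E60 libraries. SYCP3, of the meiotic chromosome axis, and GNAT2, of cone photoreceptors, had the same pattern, with stage differences of -10.01 ± 0.38 and -9.30 ± 0.39 and E60 differences of -9.23 and -9.72. All 12 were high in the 5 shallow libraries and low in the 4 deep ones, the E60 libraries included, and none passed with the set term.

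The genes that passed with the set term as lower came from few groups. Genes of stratified epithelium were IVL, SPRR1A, KRT4, KRT13, SCEL, A2ML1 and the serine protease TMPRSS11A, and muscle genes were MYLPF, TNNC2, TNNI1, MYL3, MYHC and MYBPC1, a myosin-binding protein. The rest were CALB1, SLC20A2, ENAM, EGLN3, SERPINB11, GTSF1L and MATN2. MATN2, a matrilin, did not pass in the 6 libraries (-0.45 ± 0.18), and its E60 values were 4.04, 0 and 0 FPKM. When each library that leaves the sets estimable was left out in turn, which gave 8 fits, IVL, SPRR1A, KRT4, KRT13, SCEL, MYLPF and SCIN passed in all 8, A2ML1 in 7, MYHC and MATN2 in 6, TNNC2, SLC20A2 and PID1 in 5, DKK1, ENAM and ABI3 in 4 and TMPRSS11A in 3. The remaining 10, CALB1, TNNI1, MYL3, MYBPC1, EGLN3, SERPINB11, GTSF1L, SNCAIP, NGR and CLDN17, passed in 2 of the 8. IVL, SPRR1A and SCEL had no read in the shallow E60 libraries and 15, 18 and 12 reads in the deep one. Their set-term differences of -9.55, -9.52 and -7.34 went beyond their stage differences of -6.96, -6.08 and -4.35. The size of these set-term differences depends on the pseudocount. MYL3, TMPRSS11A, GTSF1L and MATN2 also had no read in the shallow E60 libraries. The number that passed ran from 7 without E50 library 2 to 97 without E60 library 3.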

How the data were processed

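Reads of 9 libraries (3 per stage) were aligned by the authors to Sscrofa10.2 with TopHat, per the labels, and deposited as 1 table of FPKM per gene or transcript. The pooling of animals and the strand setting of the counting are not given in the sources used here. Sample groups came from the deposited labels. Whole reads were recovered from the steps of the FPKM values for all 28963 rows above 0. On 7767 simulated rows the read numbers were exact in 93.7%. Of 17619 real rows compared between the shallow and the deep libraries, 87.1% gave the same unit for 1 read. Read numbers of single genes are uncertain to that extent. Counting error limits the E40 values most.

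The 6 libraries were scaled by median ratios over the tested genes, and log2(FPKM + 0.1) was fitted with limma 3.58.1 (R 4.3.3) with a mean-variance trend and no covariate, two-sided, with Benjamini-Hochberg adjustment over the 18802 rows above the filter, of which 10996 were named genes. A gene passed with an adjusted p below 0.05 and a log2 difference of 1 or more. On simulated rows 179 of 200 with a log2 change of 2 and 23 of 17850 unchanged passed. With the library set as a term, 180 of 200 with a log2 change of 4 and 27 of 17815 unchanged passed, and smaller changes were not simulated for that fit. The simulated set effect was alike at every stage. That simulation therefore could not test the assumption of the fit or vouch for the 27 of 10996 named genes that passed in the data. The log2 scale with a pseudocount understates changes of low genes. Python 3.11.15 with pandas 2.3.3, numpy 2.4.6 and matplotlib 3.10.9 made the tables and plots.

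Named were the 12 genes with the largest differences in each direction at a mean of at least 10 scaled FPKM, those past the limits with the library set as a term, and members of 47 gene lists. The lists and genes were chosen with earlier results of these data known. A list of small nuclear RNA rows had no row in the table, and of 80 replication-dependent histone genes 1 was in it and rose. Same-numbered libraries of both stages had correlations of their deviations of 0.07, -0.02 and 0.08, so the numbers did not pair them. Alternatives were other scalings, pseudocounts and filters, limma-voom on the recovered reads, array weights, all 9 libraries, a replicate block and leaving out each library. Rows with LOC, MIR or tRNA symbols entered the fit but are not described as genes, and gene positions and sequences were not used here.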

Additional observations from a re-analysis of the deposited data

Results flagged for a closer look

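Outside the named genes, 1 uncharacterised row was far more abundant in one stage than in the other. LOC102158401 took 26.4%, 24.8% and 22.3% of the recovered reads in E40 libraries 1, 2 and 3 and 0.576%, 0.0329% and 0.0995% in E50 libraries 1, 2 and 3. At E60 it took 0.0431% in the deep library and 40.6% and 30.3% in the shallow ones. Within E60, the one stage with both library sets, its share moved with the set, and its part in the differences of other genes was not tested.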

How the results depend on the processing

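The scaling decided the balance of directions: without it 4429 genes passed as higher and 1621 as lower, and scaling over all rows moved the median of all genes to 0.20 and gave 2208 and 2137. Under the other settings the counts were 1306 to 2019 higher and 1572 to 2532 lower, leaving out single libraries included. The replicate block gave 1764 and 2290, and no gene named here lost its call under it, while AMBN gained one (-1.06), as it did in limma-voom (-1.04), with array weights (-1.32) and without E40 library 3 (-1.54). A pairing of the libraries by number was not borne out by their deviations.

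Of 153 named genes past the limits, 119 stayed past them in each of the 17 settings that could test them, and none of the 153 changed sign. Without scaling 19 lost the call, among them KRT5 (-0.53), KRT14 (-0.78), SFN (-0.65) and INHBA (-0.86). In the limma fit of all 9 libraries with a coefficient per stage, CDK1, CDT1 and ABI3 were among those that lost the call. Their adjusted p there were 0.067, 0.056 and 0.38. ACP5 lost the call in limma-voom (1.34, adjusted p = 0.059). RN5-8S, CRIPT, ATP5J2, SGK3, TWIST2, AMTN, SFRP2, SFRP5, PKP1, CLDN4, EPCAM and ID1 lost it when 1 or more single libraries were left out, with adjusted p up to 0.15 or a difference below 1. E40 library 1 decided ID1 (0.85 without it). Genes that had not passed turned sign without scaling: DSG3 (0.36), LEF1 (0.15) and MATN2 (0.34). DSPP turned with a pseudocount of 1 (-0.35), limma-voom (-0.29) and array weights (-0.19), and ran from -1.52 to 1.20 when single libraries were left out. FGF4 turned with limma-voom (-0.13) and ran from -0.095 to 2.34.

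With the library set as a term, 27 genes passed, 28 without scaling and 28 with a pseudocount of 1. Leaving out single libraries gave 7 to 97: 20, 14 and 23 without E40 libraries 1, 2 and 3, 11, 7 and 9 without E50 libraries 1, 2 and 3, and 60 and 97 without E60 libraries 2 and 3. Without E60 library 1 that fit could not be made. The cause of these changes was not tested. Depth limits the E40 values most, since 1258 of the genes tested had 10 or fewer reads in the 3 E40 libraries together.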
